A study of Mus musculus with 6 samples.

Results

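The Hox A cluster is a run of homeobox genes on mouse chromosome 6, and 8 of its genes were measured here, out of 13341 genes in all. They were taken by symbol (Hoxa followed by a number) and 7 of them are described by name, in cluster order: Hoxa2, Hoxa3, Hoxa4, Hoxa5, Hoxa6, Hoxa7 and Hoxa10. The other genes of the cluster were not analysed here. Messenger RNA came from cultured hepatic stellate cells of mouse liver, the vitamin A-storing pericytes that become collagen-producing myofibroblasts when activated. The cells of both groups grew for 4 days in DMEM with 10% fetal bovine serum under basal conditions, and 3 libraries labelled wild type (WT 1 to WT 3) were set against 3 labelled Nbr1 knock-out (KO 1 to KO 3). Nbr1 encodes an autophagy cargo receptor, and the series asks how it and p62, the product of Sqstm1, act on the STING pathway in these cells. The labels give no strain, sex or age, nor how the Nbr1 allele was made or whether the replicates came from separate animals, so p-values measure the spread between these libraries.

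Hox genes encode transcription factors that bind DNA through a homeodomain. Genes at one end of each cluster are switched on early and towards the head, and genes at the other end later and towards the tail. Fibroblasts and other mesenchymal cells of the adult keep part of this pattern, so the set of Hox genes a culture expresses reflects where in the body its cells came from. TALE homeodomain proteins of the MEIS, PBX and PKNOX families bind DNA together with Hox proteins. Polycomb complexes hold Hox clusters silent, Trithorax-type MLL complexes keep them active, and retinoic acid is a classical inducer of the genes that are switched on early.

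The promoters of Hoxa5 and Hoxa10 are shown because these 2 genes moved in opposite directions, and that of Hoxa2 because, among the windows matched, it alone held a joint PBX and Hox motif. The sequences are from RefSeq, build GRCm38.p6, minus strand, and each covers the 250 bases before an annotated start. RefSeq windows were matched for 6 of the 8 genes, and Hoxa10 has 2 starts, which reads from the 3' end of a transcript cannot tell apart. Capitals mark matches on either strand to any of 5 motifs. These are the MEIS core TGACAG and the joint PBX and Hox motif TGATTNAT. The CDX-type core TTTATG, the nuclear receptor half-site AGGTCA and the TATA box, spelled TATAAA, were searched as well.
Hoxa5, chr6:52204588-52204837: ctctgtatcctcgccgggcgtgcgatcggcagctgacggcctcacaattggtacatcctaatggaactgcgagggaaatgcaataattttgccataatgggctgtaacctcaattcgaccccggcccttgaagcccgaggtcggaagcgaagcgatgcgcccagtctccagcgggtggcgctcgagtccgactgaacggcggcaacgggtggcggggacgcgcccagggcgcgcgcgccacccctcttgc
Hoxa10 upstream start, chr6:52240855-52241104: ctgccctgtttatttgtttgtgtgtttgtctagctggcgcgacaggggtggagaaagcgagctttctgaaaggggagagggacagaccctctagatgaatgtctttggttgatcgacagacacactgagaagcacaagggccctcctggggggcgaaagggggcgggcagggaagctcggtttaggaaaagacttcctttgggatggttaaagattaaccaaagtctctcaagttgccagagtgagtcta
Hoxa10 downstream start, chr6:52234940-52235189: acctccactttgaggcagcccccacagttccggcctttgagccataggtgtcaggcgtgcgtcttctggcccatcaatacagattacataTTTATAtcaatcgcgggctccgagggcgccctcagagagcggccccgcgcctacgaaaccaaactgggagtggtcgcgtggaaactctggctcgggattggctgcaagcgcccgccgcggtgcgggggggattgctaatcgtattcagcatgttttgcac
Hoxa2, chr6:52164832-52165081: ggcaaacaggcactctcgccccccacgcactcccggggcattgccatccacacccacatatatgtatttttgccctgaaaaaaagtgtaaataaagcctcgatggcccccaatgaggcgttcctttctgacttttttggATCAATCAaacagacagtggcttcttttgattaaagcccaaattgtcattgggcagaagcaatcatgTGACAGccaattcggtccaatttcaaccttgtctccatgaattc

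None of the 5 motifs had a match in the Hoxa5 window or in that of the upstream Hoxa10 start. The downstream Hoxa10 start had 1 match to TATAAA on the opposite strand. The Hoxa2 window had 1 match each to TGATTNAT and TGACAG. Among the 6 genes, TGACAG was also found 1 time before Hoxa3, and TTTATG 2 times before Hoxa7. Of all 32851 RefSeq windows of this length, 15.9% held TGACAG, 2.82% TGATTNAT, 10.8% TTTATG, 14.0% AGGTCA and 12.4% TATAAA. The GC content was 63.6% before Hoxa5, 51.6% and 59.2% before the Hoxa10 starts, and 46.4% before Hoxa2, with a median of 52.4% over all windows. These matches describe the letters only.

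The values are read counts divided by the authors with a factor of each library (normalized counts). The library kit reads transcript ends, so a value does not grow with transcript length. Levels of different genes are set side by side without dividing by length, but how evenly their ends were captured was not tested. Recovered depth was 1508518 to 2383879 reads per library. By their deviations from the group means, WT 1, KO 1 and KO 3 formed one set, and WT 2, WT 3 and KO 2 the other. Taking out the group means removes the label difference, so these sets do not show whether the libraries group by label. Across the 10540 tested genes, WT 1 correlated at 0.857 and 0.856 with WT 2 and WT 3 and at 0.875 and 0.888 with KO 1 and KO 3. WT 2 and WT 3 correlated at 0.984. The KO libraries correlated with each other at 0.946 (KO 1 and KO 2), 0.981 (KO 1 and KO 3) and 0.924 (KO 2 and KO 3). Nbr1 itself did not pass (204.1, 278.0 and 288.7 normalized counts in WT 1 to WT 3, 203.7, 188.2 and 175.6 in KO 1 to KO 3, adjusted p = 0.22), and a 3' tag does not check a deletion elsewhere in the gene. Sqstm1, at 10.9 to 24.0 in WT and 644.6 to 859.1 in KO libraries, is widely expressed in mouse tissues, so each direction below rests on the labels as given. Of 12 stellate cell markers 5 were analysed, with a summed level of 2495.9 to 2552.2 in WT and 6565.6 to 7027.0 in KO libraries. Most of this sum was Col1a1 (mean 2169.4 against 5538.8). Pdgfrb, Col1a1 and Acta2 were higher (Pdgfrb not without KO 1, KO 2 or KO 3, adjusted p up to 0.0923), where 4.67% of all tested genes were called higher. Pdgfra stood higher without overlap or a call (adjusted p = 0.0573), and Ecm1 overlapped between the labels (adjusted p = 0.459). Des, Lrat, Reln and 4 other stellate markers were not analysed here.

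Hoxa5 rose and Hoxa10 fell in the knock-out label, and no other gene of the cluster passed. A gene was tested if it reached 10 normalized counts in at least 3 libraries, and 7 of the 8 did, Hoxa6 being the exception. At an adjusted p under 0.05 (limma, Benjamini-Hochberg over all tested genes), 1 of the 7 was higher and 1 lower, where 6.92% of all tested genes passed, 4.67% of them higher and 2.25% lower. The WT and KO values did not overlap for the same 2 of the 7 genes, against 30.1% of all tested genes (16.5% higher and 13.6% lower in KO). The median log2 change of the 7 genes was -0.22, beside -0.01 for all tested genes. With 7 genes, neither share is read as a property of the cluster. With 3 libraries a group an exact permutation test of 1 gene cannot go below p = 0.1, so the tests rest on the fit over all genes.

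**Figure D1:**
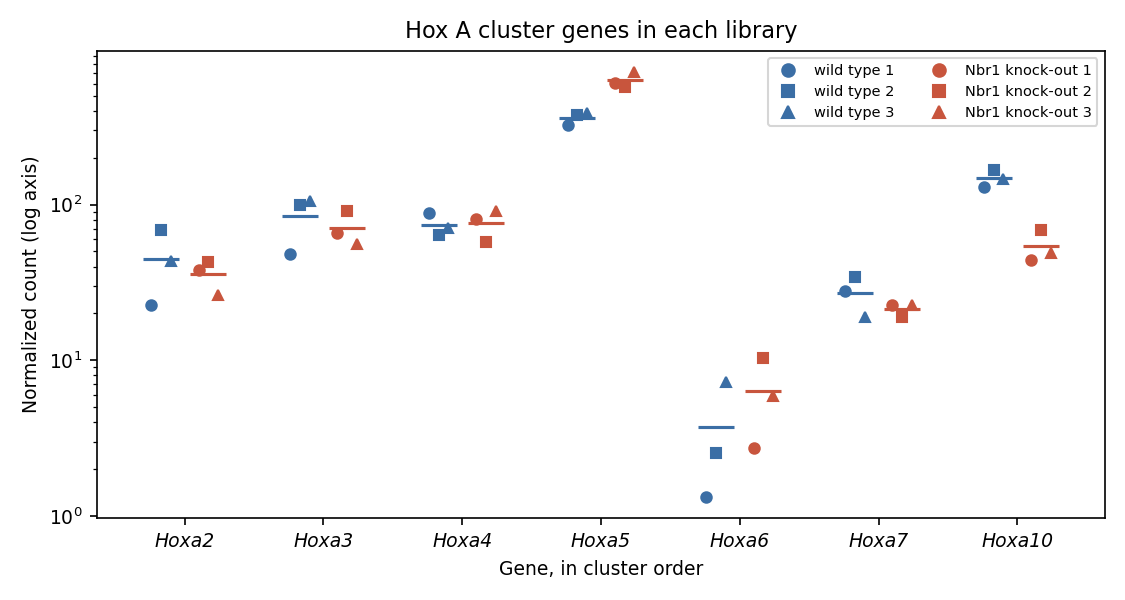
Normalized count (log axis) of each of 7 Hox A cluster genes, in cluster order, with 1 point per library and a bar at each group mean, blue for wild type and red for knock-out. Hoxa5 is the highest of them in every library and is higher in all 3 knock-out libraries, at 570.7 to 712.0, than in the wild-type ones, at 322.9 to 386.8. Hoxa10 is lower in all 3 knock-out libraries.

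Hoxa5 encodes a factor of paralogue group 5 that is needed in the mesenchyme of the developing lung and gut. Its level was 322.9, 377.1 and 386.8 normalized counts in WT 1 to WT 3, and 604.7, 570.7 and 712.0 in KO 1 to KO 3. Every knock-out library stood above every wild-type library. The mean rose 1.74-fold, from 362.2 ± 34.4 to 629.1 ± 73.7 (SD, n = 3 each), with a log2 change of 0.79 (SE 0.15, 95% interval 0.45 to 1.14, adjusted p = 0.0238). These values rest on 1117 and 1932 reads, and the gene ranked at position 718 of the 13341 by mean level. The spread between replicates, a coefficient of variation of 9.51% and 11.7%, was wider than counting alone gives at this depth (5.33% and 3.95%). The log2 change was 1.02 within the set of WT 1, KO 1 and KO 3, and 0.58 within the other set. In each set 1 library is alone in its group (WT 1 and KO 2), so no p is given. Leaving out 1 library moved it only between 0.70 and 0.86, but the gene missed the threshold on removal of WT 2, WT 3 or any of KO 1 to KO 3 (adjusted p from 0.0587 to 0.123).

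Hoxa10, of paralogue group 10, is known for its roles in the uterus, the limb and blood progenitors. It stood at 129.4, 167.1 and 147.1 normalized counts in WT 1 to WT 3, and at 44.4, 68.8 and 48.7 in KO 1 to KO 3. The lowest wild-type value was above the highest knock-out value. The mean fell 2.74-fold, from 147.9 ± 18.9 to 53.9 ± 13.0, with a log2 change of -1.46 (SE 0.22, 95% interval -1.98 to -0.93, adjusted p = 0.0121), on 458 and 170 reads. Within the library sets the log2 change was -1.46 and -1.18. The gene missed the threshold on removal of WT 2, WT 3, KO 1 or KO 3 (adjusted p from 0.0554 to 0.0767), while the log2 change stayed between -1.64 and -1.33 in all 6 such fits.

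Because both genes are read in the same library, their ratio does not depend on the library factor. Hoxa5 over Hoxa10 was 2.49, 2.26 and 2.63 in WT 1 to WT 3 and 13.6, 8.30 and 14.6 in KO 1 to KO 3. The knock-out ratios were all above the wild-type ones, and the lowest of them was in KO 2. The mean ratio went from 2.46 ± 0.187 to 12.2 ± 3.39, and no test was made of it because the genes were picked for their changes.

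Hoxa2, which sets the identity of the second branchial arch, stood at 22.7, 68.9 and 43.6 normalized counts in WT 1 to WT 3 and at 38.0, 43.0 and 26.1 in KO 1 to KO 3. The knock-out values lay within the wild-type range, and the log2 change was -0.22 (95% interval -1.23 to 0.78, adjusted p = 0.817). Hoxa3, needed for the thymus and parathyroid glands, stood at 48.0, 99.1 and 106.2 against 66.1, 91.1 and 55.8, with a log2 change of -0.20 (interval -1.03 to 0.64, adjusted p = 0.807). For Hoxa3 too, all 3 knock-out values lay between the lowest and highest wild-type values. Hoxa4 stood at 88.1, 63.8 and 70.8 against 80.6, 57.6 and 91.4, with a log2 change of 0.03 (interval -0.54 to 0.60, adjusted p = 0.959). The intervals of Hoxa2 and Hoxa3 include changes as large as that of Hoxa5 in the opposite direction, so these data do not show that they were unchanged.

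These 3 genes separated the library sets and not the labels. Hoxa2 reached 22.7 to 38.0 in WT 1, KO 1 and KO 3, and 43.0 to 68.9 in the other 3 libraries. Hoxa3 showed the same order, with 48.0 to 66.1 against 91.1 to 106.2. Hoxa4 had the reverse order, with 80.6 to 91.4 against 57.6 to 70.8. Over the 6 libraries, on log2(value + 1), Hoxa2 and Hoxa3 correlated at 0.88, and Hoxa4 at -0.80 with Hoxa2 and -0.85 with Hoxa3, which describes this split in libraries that share their set. The sets did not overlap for 3 of the 7 tested genes, beside 40.0% of all tested genes, and since the sets were drawn from all genes this is no test. For Hoxa2 and Hoxa3 the wild-type replicate spread of 51.3% and 37.6% was over the 15.1% and 11.0% of counting alone. With a term for the sets the log2 changes of Hoxa2, Hoxa3 and Hoxa4 turned to 0.06, 0.08 and -0.13, none past the threshold.

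**Figure D2:**
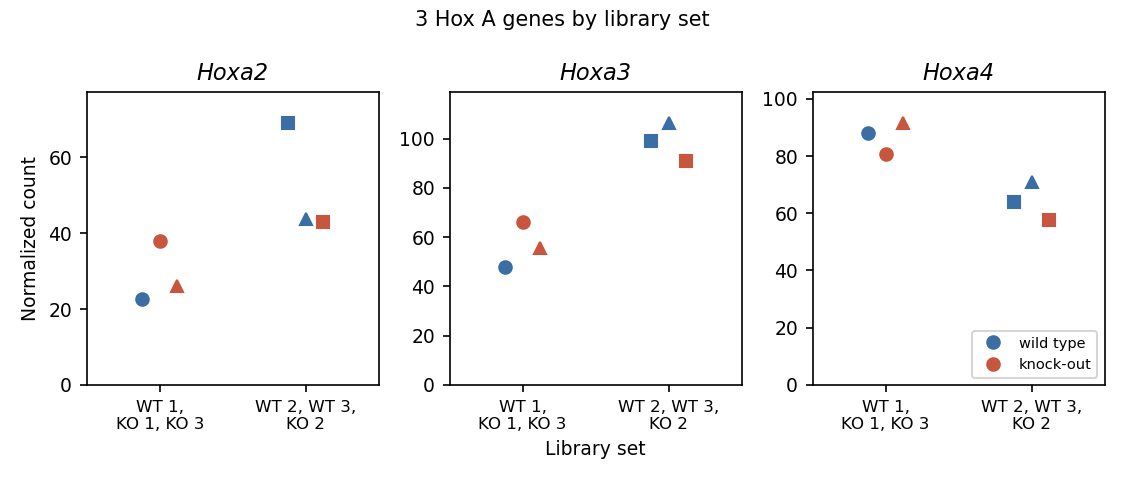
Normalized count of Hoxa2, Hoxa3 and Hoxa4 in each library, split into the 2 library sets, with blue points for wild type and red for knock-out and the marker shape giving the replicate number (circle 1, square 2, triangle 3). Hoxa2 and Hoxa3 are lower and Hoxa4 is higher in WT 1, KO 1 and KO 3, whatever the label.

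In the middle of the cluster, Hoxa6 and Hoxa7 were low. Hoxa6 had 1, 3 and 8 reads in WT 1 to WT 3 and 3, 12 and 5 in KO 1 to KO 3, too few for the test. Its normalized counts, 1.33, 2.52 and 7.26 against 2.72, 10.3 and 5.93, overlapped. Hoxa7, a thoracic-level patterning gene, stood at 28.0, 34.4 and 19.1 against 22.6, 18.9 and 22.5 (log2 change -0.30, interval -0.97 to 0.38, adjusted p = 0.609). The wild-type and knock-out values of Hoxa7 overlapped as well.

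**Figure D3:**
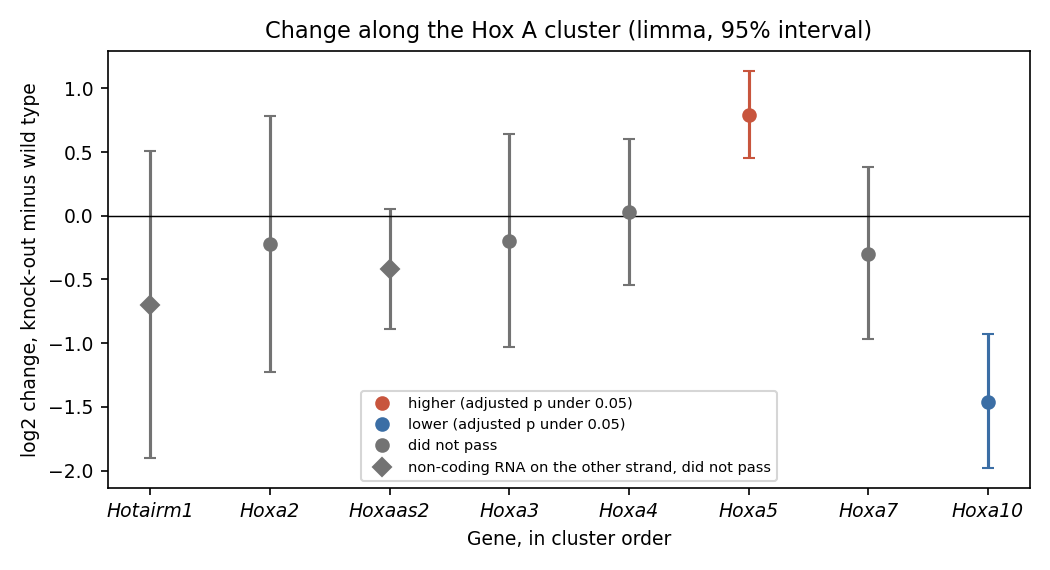
Fitted log2 change with its 95% interval for 6 of the tested Hox A genes (circles) and 2 non-coding RNAs of the opposite strand (diamonds), in cluster order, red or blue where the test was passed. The intervals of Hoxa5 (0.45 to 1.14) and Hoxa10 (-1.98 to -0.93) exclude 0, and those of the other genes shown include it.

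Among the 7 named genes, the order of the levels was led by Hoxa5 in both groups. In the wild-type label it was followed by Hoxa10, Hoxa3, Hoxa4, Hoxa2, Hoxa7 and Hoxa6. Among neighbours in that order, the library values overlapped for Hoxa3 with Hoxa4, Hoxa4 with Hoxa2 and Hoxa2 with Hoxa7. In the knock-out label Hoxa10 came after Hoxa4 and Hoxa3, and the values of Hoxa4, Hoxa3 and Hoxa10 overlapped from each to the next.

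The summed level of the 8 genes was 655.1, 822.2 and 798.1 in WT 1 to WT 3 and 864.5, 866.3 and 974.2 in KO 1 to KO 3. Without Hoxa5 it was 332.2, 445.1 and 411.3 against 259.8, 295.7 and 262.2, so that the sum with Hoxa5 was higher in the knock-out label and the sum without it lower. The sum without Hoxa5 still holds Hoxa10, at 129.4, 167.1 and 147.1 against 44.4, 68.8 and 48.7. It is therefore not read as a fall of the remaining genes, none of which passed. Hoxa5 made up 49.3%, 45.9% and 48.5% of the sum in WT 1 to WT 3 and 69.9%, 65.9% and 73.1% in KO 1 to KO 3. The exact (Clopper-Pearson) 95% interval reached at most 53.8% in any wild-type library and began at 62.9% or above in every knock-out library, which covers counting error only. Hoxa10 made up 19.8%, 20.3% and 18.4% against 5.13%, 7.94% and 4.99%. The share of Hoxa4 was 7.76% to 13.4% against 6.65% to 9.38%, and these ranges overlapped. In a bulk sample, fewer cells that express a gene and less of its RNA per cell cannot be told apart.

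**Figure D4:**
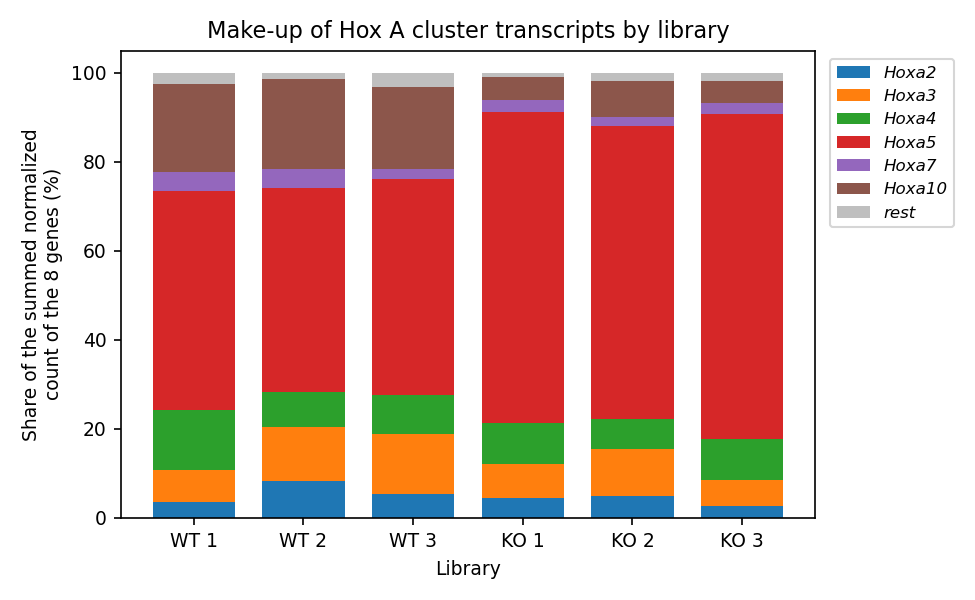
Share (%) of 6 genes in the summed normalized count of all 8, 1 bar per library (WT and KO as labelled), with the rest of the sum in grey. Hoxa5 takes 45.9% to 49.3% of the wild-type bars and 65.9% to 73.1% of the knock-out bars, and Hoxa10 18.4% to 20.3% and 4.99% to 7.94%.

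Gene models overlap in this cluster, which bears on how reads are assigned. Strand and overlap were read from GENCODE vM21, an annotation of GRCm38 and not of the authors' build GRCm39. All 8 genes lie on the minus strand. The longest Hoxa3 model spans Hoxa4, Hoxa5 and Hoxa6 on the same strand. A further model of that strand, Gm28308, overlaps Hoxa2, Hoxa3, Hoxa4, Hoxa5 and Hoxa6. Exons of a gene on the other strand come within 500 bases of the 3' end of Hoxa3 (Hoxaas2), Hoxa4 (Gm29430) and Hoxa7 (Hoxaas3), and without knowledge of strand in the counting those reads are uncertain. No exons of other genes were annotated in that window for Hoxa5, Hoxa10, Hoxa2 or Hoxa6.

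Of 18 listed non-coding and flanking genes, 13 were analysed and 10 tested, and 0 passed in limma or edgeR and 1 in DESeq2 (Tax1bp1). Of all tested genes, edgeR called 7.27% and DESeq2 9.02%. In limma 2 of the 10 had an unadjusted p under 0.05, as had 22.6% of all tested genes, and the median log2 change was -0.34. Hotairm1, a non-coding RNA of the cluster read from the other strand, stood at 20.0, 26.9 and 12.7 in WT 1 to WT 3 and at 5.43, 12.9 and 20.2 in KO 1 to KO 3 (adjusted p = 0.486). The groups overlapped. Hoxaas2 stood at 70.7, 90.7 and 97.1 against 67.0, 55.9 and 68.8, with no overlap (log2 change -0.42, SE 0.20, adjusted p = 0.279). Hoxaas3, whose model runs across Hoxa4 to Hoxa7, had 7 reads against 19 and was not tested. Beyond one end of the cluster, Skap2, which encodes an adaptor protein of Src kinase signalling, stood at 184.1 to 259.5 against 306.0 to 339.4 (log2 change 0.49, SE 0.17, adjusted p = 0.158). Hibadh, a valine breakdown enzyme gene beyond the other end, was 38.7 to 246.1 against 41.5 to 151.3 and overlapped (adjusted p = 0.62).

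Paralogues of the Hox B and Hox C clusters give the same positions in other clusters. Of 8 tested Hox B genes, 1 was higher (Hoxb8) and 1 lower (Hoxb7), with a median log2 change of 0.16, and edgeR and DESeq2 each called 3 of the 8. Among all tested genes, limma called 6.92%, edgeR 7.27% and DESeq2 9.02%. All 5 tested Hox C genes were lower, with a median of -5.08. These were Hoxc4, Hoxc6, Hoxc10, Hoxc9 (116 WT and 2 KO reads) and Hoxc13 (162 and 2). The 2 called Hox A genes had log2 changes of 0.79 and -1.46, between those of Hoxb8 (1.08, adjusted p = 0.029) and Hoxb7 (-1.66, adjusted p = 0.0442). Hoxb7 and Hoxb8 missed the threshold on removal of any library but WT 1 (adjusted p up to 0.16 and 0.154), while the 5 Hox C genes passed in all 6 fits with 1 library left out. The differences between clusters were not tested.

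In group 5, Hoxa5 carried 80.9% to 93.6% of the summed level of Hoxa5 and Hoxb5 in WT 1 to WT 3 and 93.0% to 94.5% in KO 1 to KO 3. Hoxb5 stood at 76.0, 29.4 and 26.3 against 45.3, 33.5 and 49.8, and did not pass (log2 change 0.11, SE 0.42, adjusted p = 0.914). In group 10, Hoxc10 had 124 WT reads and 1 KO read, so both analysed genes of that group were lower. The summed level of Hoxa10 and Hoxc10 was 169.4, 207.4 and 188.9 against 44.4, 69.6 and 48.7, and Hoxa10 made up 76.4% to 80.6% of it in the wild-type label. In group 7, Hoxb7 went from 52.0, 52.9 and 32.7 to 15.4, 18.9 and 8.31, while Hoxa7 did not pass. In group 4, Hoxa4 overlapped between the labels, Hoxb4 stood at 60.0 to 77.2 against 97.1 to 102.0 without passing (adjusted p = 0.108), and Hoxc4 had 57 reads against 0, at least 19.4-fold lower by a floor of 3 reads over the group.

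The Hox A genes made up 52.2%, 52.6% and 51.7% of the summed level of all analysed Hox genes in WT 1 to WT 3 and 63.5%, 60.5% and 65.7% in KO 1 to KO 3. The Hox B share was 31.3% to 32.6% and 34.2% to 39.3%. The Hox C share was 15.2% to 16.3% and at most 0.24%. The summed Hox C level was 190.8 to 251.9 in WT and 0.905 to 3.44 in KO libraries. The summed Hox B level was 408.3 to 494.8 against 497.0 to 562.9. All shares are of the same total, so the near loss of the Hox C part by itself raises the others. The larger Hox A share is therefore not read as a gain on Hox B.

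**Figure D5:**
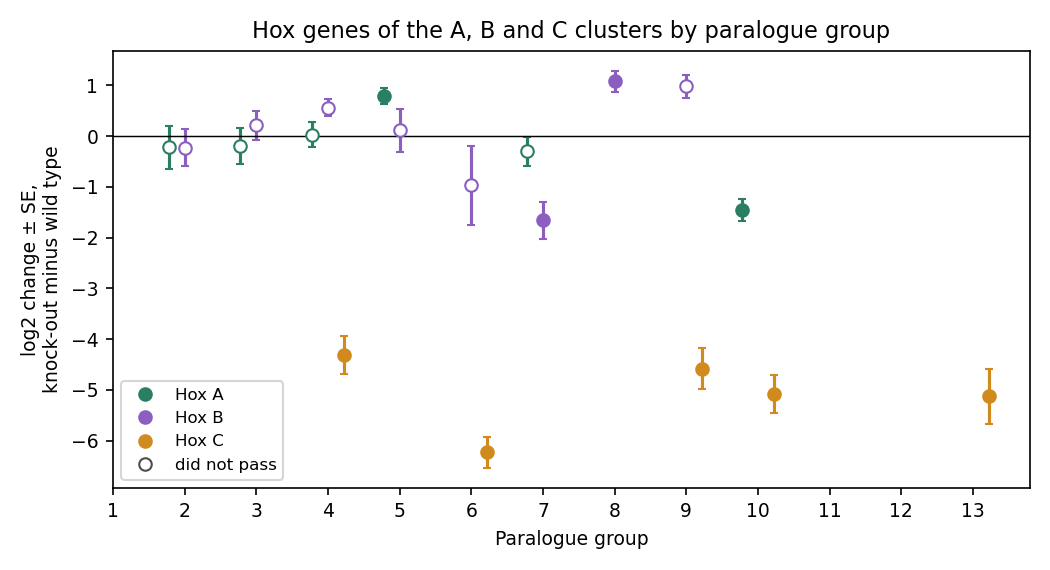
Fitted log2 change with its standard error for the tested Hox genes described here, by paralogue group, with green for Hox A, purple for Hox B and orange for Hox C, and open points for genes that did not pass. The Hox A points run from -1.46 (Hoxa10) to 0.79 (Hoxa5), and the 5 Hox C points from -6.23 (Hoxc6) to -4.31 (Hoxc4).

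Of the TALE cofactors, 2 of 8 tested rose and 0 fell (median log2 change 0.21), beside 4.67% and 2.25% of all tested genes. Meis1 rose 9.79-fold, from 8.0, 21.0 and 37.2 to 213.6, 220.0 and 214.8 (log2 change 3.47, SE 0.49, adjusted p = 0.00958). Pknox2 rose 6.14-fold, from 5.34, 3.36 and 2.72 to 23.5, 18.0 and 28.5 (adjusted p = 0.0112). Meis1 missed the threshold on removal of KO 1 or KO 3 (adjusted p up to 0.0626), and Pknox2 on removal of these or WT 2 (up to 0.0764). The values of Meis2 overlapped between the labels (log2 change 0.12, adjusted p = 0.66).

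Of 12 Polycomb repressive complex 2 genes, 0 rose and 1, the core subunit gene Suz12, fell (664.4, 619.8 and 645.5 to 423.6, 455.5 and 430.7, log2 change -0.56, SE 0.11, adjusted p = 0.0345). The median of these 12 was -0.42. Ezh2, its methyltransferase gene, stood at 636.5 to 945.9 against 495.9 to 561.2 and did not pass (log2 change -0.46, adjusted p = 0.195). Of 18 tested Polycomb repressive complex 1 genes and 19 Trithorax, MLL and demethylase genes, 0 passed in limma, edgeR or DESeq2, with 3 and 2 at an unadjusted p under 0.05 (beside 22.6% of all tested genes) and a median of -0.15 in each list. Of 10 CTCF and cohesin genes, 0 rose and Wapl, which encodes the factor that releases cohesin, fell (log2 change -0.70, SE 0.16, adjusted p = 0.047), though edgeR called 0 of the 10 and DESeq2 called 2. Suz12 and Wapl missed the threshold on removal of any library but WT 1 (adjusted p up to 0.198 and 0.223). In limma 6.92% of all tested genes were called, and in DESeq2 9.02%. The calls of 1 of 12 and 1 of 10 in limma, and 2 of 10 in DESeq2, are therefore not read as properties of these lists.

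Of 8 tested retinoic acid genes, 4 rose and 0 fell (median 0.56), where 4.67% of all tested genes rose and 2.25% fell in limma. Crabp1, a retinoic acid-binding protein gene, had 0 WT reads and 138 KO reads, at least 45-fold higher by a floor of 3 reads over the group. Rdh10, which makes retinaldehyde, rose 5.50-fold (16.0, 34.4 and 23.6 to 139.4, 119.5 and 148.3, adjusted p = 0.00478). Aldh1a1 and Dhrs3 also rose (log2 change 0.89 and 1.47). Crabp1 and Rdh10 passed in all 6 fits with 1 library left out, while Aldh1a1 passed in 3 (not without WT 2, KO 1 or KO 3, adjusted p up to 0.0857) and Dhrs3 in 1 (the fit without WT 1, otherwise up to 0.154). The receptor genes Rara, Rarg, Rxra and Rxrb did not pass, with log2 changes from -0.51 to 0.23. Of 20 tested transcription factor genes of regional mesenchyme, 5 rose and 2 fell, with a median of -0.03, and edgeR called 7 and DESeq2 12 of the 20 (beside 7.27% and 9.02% of all tested genes). Shox2, a limb and heart patterning gene, fell 4.23-fold (266.8, 225.1 and 232.4 to 43.5, 56.7 and 71.2, adjusted p = 0.00272) and passed with any 1 library left out. Isl1, Hlx and Lhx2 rose 7.74-fold, 3.45-fold and 2.78-fold, with Isl1 and Hlx missing the threshold without KO 1 or KO 3 (adjusted p up to 0.0614 and 0.0758) and Lhx2 without any library but WT 1 (up to 0.122).

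Markers of other cells differed between the labels, in both directions. Of all tested genes, limma called 4.67% higher and 2.25% lower, and with so few markers the calls below are not read as properties of these lists. The summed level of 5 mesothelial markers was 1579.6 to 1753.2 in WT and 1134.2 to 1315.8 in KO, and Upk3b fell (adjusted p = 0.0112, but up to 0.0764 without WT 3, KO 1 or KO 3). Most of that sum was Gpm6a (mean 1050.8 against 813.0, adjusted p = 0.167), while Msln stood the other way, at 9.24 to 17.3 against 19.0 to 26.3 (log2 change 0.68, adjusted p = 0.268). Of 5 portal fibroblast markers, 4 were tested, and Thy1 and Eln rose (Eln not without WT 3, KO 1, KO 2 or KO 3, adjusted p up to 0.102), and the sum of the list was 592.9 to 888.5 against 832.8 to 889.8. Cd34, on the same list, stood lower without overlap or a call (330.9, 195.7 and 158.0 against 134.0, 111.7 and 144.8, log2 change -0.74, adjusted p = 0.186). The sum of the 3 smooth muscle markers analysed was 52.7 to 106.7 against 138.4 to 161.1, and Cnn1, with 3 WT and 97 KO reads, rose (adjusted p = 0.00359). Most of that sum was Smtn (105.4, 58.8 and 51.8 against 124.9, 104.9 and 106.8), which overlapped and did not pass (adjusted p = 0.211). The sum of the 3 cholangiocyte markers was 68.9 to 74.5 against 512.4 to 537.5, nearly all of the latter from Sox9, which rose (adjusted p = 0.000337). Krt19 stood lower without overlap or a call, at 47.2 to 50.7 against 31.8 to 37.1 (log2 change -0.54, adjusted p = 0.148), and Krt7 overlapped. Hepatocyte, leukocyte and endothelial sums were at most 38.1 in any library. The part of these cells in the Hoxa5 and Hoxa10 results was not tested.

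The genes most like Hoxa10, by Pearson's r of log2(value + 1) over the 6 libraries, were the mitochondrially encoded ND2 (0.9986), Apol7a (0.9980) and Phactr1 (0.9971). Of these, Phactr1 passed the test between the labels (58.7, 94.9 and 78.1 to 13.6, 24.9 and 13.1, adjusted p = 0.012), while ND2 and Apol7a were lower without passing (adjusted p = 0.0628 and 0.0906). The genes most like Hoxa5 were Sh2b3 (0.9965), Aldh1a1 (0.9940) and Apbb1ip (0.9940). Aldh1a1 stood at 406.9, 475.3 and 494.8 against 845.5, 789.0 and 911.3, and Apbb1ip at 74.7, 81.5 and 91.7 against 173.8, 151.3 and 201.7, both past the threshold (adjusted p = 0.0118 and 0.0162). Sh2b3 was 36.0 to 49.0 against 73.9 to 100.9 (adjusted p = 0.0506). Phactr1 missed the threshold without WT 2, WT 3, KO 1 or KO 3 (adjusted p up to 0.0764), and Apbb1ip without WT 2, KO 1 or KO 3 (up to 0.104). With 6 libraries in 2 groups and the best of 10540 genes taken, such values are a description.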

How the data were processed

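The authors deposited a normalized count signal, in which the reads of each gene symbol are divided by a factor of the library, with 6 columns of libraries. RNA (200 ng) was made into libraries with a 3' end kit and sequenced in single-end reads of 75 nucleotides, per the labels' protocols. The submitters' processing notes name DESeq2 and the build GRCm39. The aligner, the annotation and the use of strand or molecular identifiers are not given in the sources used here. Dividing each column by its smallest value above 0 gave whole reads for 100% of values (tolerance 0.01), and these reads were used as recovered counts. No gene had fewer than 9 reads in all.

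The 10540 genes that reached 10 normalized counts in 3 or more libraries entered a two-sided limma test (version 3.58.1, R 4.3.3, variance trend on) of log2(value + 1). Group was the only term. Benjamini-Hochberg adjustment at 0.05 covered all tested genes. On simulated counts the test recovered 46.9% of 2-fold and 96% of 4-fold changes. The simulation held no library sets and gave every gene the same dispersion, which was not estimated from these data. Its recovery rates are therefore not those of these libraries, and a gene that did not pass is not shown to be unchanged. Folds are ratios of group means of normalized counts. The log2 scale with a pseudocount of 1 understates the change of low genes. Intervals and floors (3 reads) of counts cover counting error only. Lists and members were chosen with earlier results of these data known. Some genes, 1 of the 8 Hox A genes among them, are not reported here. The genes named are the other Hox A genes, Nbr1 and Sqstm1, the 3 genes most like each called Hox A gene (predicted models and pseudogenes left out), and, from each list, the called members if 5 or fewer, otherwise up to 4. Neighbours of the cluster, Hox B, Hox C, cofactor, Polycomb, receptor and marker genes beside these were chosen after their values were seen. Alternatives were other filters, pseudocounts (0.5 and 5) and scalings, edgeR 4.0.16 and DESeq2 1.42.0 on the recovered reads, no trend, a replicate block, a term for the library sets (average-linkage clustering of deviations from the group means) and each library left out.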

Additional observations from a re-analysis of the deposited data

How the results depend on the processing

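The number of called Hox A genes was 2 and ranged from 0 to 2 when 1 library was left out. It was 1 with the replicate block, where Hoxa5 missed the threshold (adjusted p = 0.0549) and Hoxa10 did not. The labels do not say whether the replicate numbers pair the libraries. Same-numbered libraries' deviations correlated at 0.446, 0.70 and -0.624. This cannot decide it, because the deviations within a group depend on each other. Hoxa5 and Hoxa10 kept their direction in all 17 alternatives and passed in 11 and 13 of them. These fits share their libraries and are not independent. The term for the library sets was drawn from the same data, so passing with it adds no support. Of the 6 fits with 1 library left out, Hoxa5 passed in 1 and Hoxa10 in 2. The calls lost were those named in the report, all with fewer libraries or with the block. The number of called genes among all tested, 729, was 380 with a mean of at least 50 (6885 genes tested), 476 with the replicate block and 2791 with a term for the library sets, where 53.9% were higher in place of 67.5%, and 200 to 2228 with 1 library left out, the highest without WT 1. The causes were not tested. The log2 change reversed for Hoxa2 (0.06), Hoxa3 (0.08) and Hoxa4 (-0.13) with the term for the sets. With 1 library left out it ranged from -0.63 to 0.15, from -0.55 to 0.01 and from -0.11 to 0.22. It was 0.15 for Hoxa2 without WT 2 and 0.01 for Hoxa3 without WT 3. For Hoxa4 it was -0.07 without WT 2, -0.02 without KO 1 and -0.11 without KO 3. Hoxa6, at 12 to 20 reads a group, was limited by depth.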

Other observations

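Of the 8 tested Hox B genes, 4 separated the same library sets as Hoxa2, Hoxa3 and Hoxa4, and 4 (Hoxb4, Hoxb7, Hoxb8 and Hoxb9) did not. That share lies near the 40.0% of all tested genes whose sets did not overlap, so nothing particular to the Hox B genes is read from it. Hoxb2, the paralogue of Hoxa2, was at 50.7 to 57.0 normalized counts in WT 1, KO 1 and KO 3 and at 97.1 to 106.7 in the other 3 libraries. Hoxb3 was at 88.1 to 142.4 against 157.9 to 188.2, and Hoxb6 at 3.56 to 4.00 against 14.6 to 28.1. Hoxb5, like Hoxa4, had the reverse order, at 45.3 to 76.0 against 26.3 to 33.5. These 4 were chosen with their values in view.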
